A study of Mus musculus with 8 samples.

Results

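The major histocompatibility complex (MHC) class II pathway was followed through 8 of its genes in sorted mouse mammary cells with and without the transcription factor C/EBPb. The genes were H2-Aa, H2-Ab1 and H2-Eb1 (chains of the class II molecules), Cd74 (the invariant chain), H2-DMa and H2-DMb1 (the peptide exchange factor), Ciita (the regulator of the class II promoters) and Ctss (cathepsin S). They were chosen by name, through every probe set whose platform symbols include one of them, which gave 17 of the 45101 probe sets on the array and 8 of the 18195 genes with a value. For each gene the probe set of highest mean leads below and its other probe sets check it. Of the 8 genes, 6 were bright enough to be tested, and H2-Eb1 and H2-DMa are described without a test.

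Expression was measured on Affymetrix mouse arrays in 4 groups of 2 biological replicates. KO CD29hi and WT CD29hi are LIN-CD24+CD29hi cells from germline C/EBPb-/- and from wildtype glands, and KO CD29lo and WT CD29lo are LIN-CD24hiCD29lo cells from the same 2 genotypes. The study set out to find signalling pathways under C/EBPb in these stem and progenitor fractions. Per the labels, the glands came in 2 paired sets with 10 mice per group, and all cells were sorted on CD24, CD29 and a lineage (LIN) stain. A germline knockout lacks the factor in every cell of the animal, blood cells included. Strain, age, the antibodies of the lineage stain and the way arrays map to the paired sets are not stated in the labels, so p-values measure the spread between these samples.

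MHC class II molecules are pairs of an alpha and a beta chain that show peptides from the endosome to CD4+ T cells. The invariant chain escorts newly made pairs to the endosome, cathepsin S trims it there, and H2-DM exchanges its last fragment for a peptide. B cells, dendritic cells and macrophages carry class II constitutively, while interferon gamma can turn on Ciita and with it the class II genes in other cells, epithelium among them. Ciita does not bind DNA itself: it docks on RFX, CREB and NF-Y, which sit on the X and Y boxes of these promoters.

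The promoter windows show how far the genes share those boxes. Windows were scanned for 5 of the 8 members, namely H2-Aa, H2-Eb1, H2-DMa, H2-DMb1 and Ctss. H2-Ab1, Cd74 and Ciita were not scanned, so nothing is said of their boxes. The windows are those of RefSeq (assembly GRCm38.p6, 250 bases before to 50 after the start site). Those for 1 alpha chain, 1 beta chain, H2-DMb1 and its near-copy H2-DMb2 are printed 5′ to 3′ on the gene's strand. Capitals mark an X box core (AACNGATG), a cyclic AMP response element core (ACGTCA) and a Y box (GATTGG), each searched on both strands, so CCAATC is a Y box read from the other strand and TGACGTCA is the element core on both strands, overlapping itself. The letters were chosen after these windows had been viewed. The windows lie at chr17:34287774-34288073 (minus strand) for H2-Aa, chr17:34305617-34305916 (plus) for H2-Eb1, chr17:34152941-34153240 (plus) for H2-DMb1 and chr17:34144999-34145298 (plus) for H2-DMb2.
H2-Aa: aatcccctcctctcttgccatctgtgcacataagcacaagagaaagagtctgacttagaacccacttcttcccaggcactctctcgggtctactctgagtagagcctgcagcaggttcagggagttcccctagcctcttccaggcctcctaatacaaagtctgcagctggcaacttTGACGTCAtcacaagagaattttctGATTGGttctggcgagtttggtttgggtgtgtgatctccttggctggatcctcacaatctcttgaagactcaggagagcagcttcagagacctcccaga
H2-Eb1: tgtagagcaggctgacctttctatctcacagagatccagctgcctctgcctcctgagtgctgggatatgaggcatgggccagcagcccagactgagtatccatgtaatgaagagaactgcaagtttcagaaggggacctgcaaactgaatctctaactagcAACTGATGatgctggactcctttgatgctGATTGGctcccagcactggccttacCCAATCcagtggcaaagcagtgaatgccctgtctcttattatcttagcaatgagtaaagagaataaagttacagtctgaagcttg
H2-DMb1: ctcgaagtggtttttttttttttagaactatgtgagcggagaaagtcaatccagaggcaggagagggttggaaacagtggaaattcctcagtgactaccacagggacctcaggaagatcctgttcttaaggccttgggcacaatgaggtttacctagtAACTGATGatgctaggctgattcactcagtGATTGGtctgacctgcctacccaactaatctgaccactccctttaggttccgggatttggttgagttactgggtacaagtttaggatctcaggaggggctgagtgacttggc
H2-DMb2: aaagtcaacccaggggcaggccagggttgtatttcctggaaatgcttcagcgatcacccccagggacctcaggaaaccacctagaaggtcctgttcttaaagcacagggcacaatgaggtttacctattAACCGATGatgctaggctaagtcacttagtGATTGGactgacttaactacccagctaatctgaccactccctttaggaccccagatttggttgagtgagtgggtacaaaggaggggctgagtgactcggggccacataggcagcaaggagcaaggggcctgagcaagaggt

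The X box core and the Y box lie 21 bases apart in H2-Eb1 and 22 bases apart in both H2-DMb1 and H2-DMb2. H2-Aa holds the response element core and a Y box that starts 49 bases before the start site, with no X box core of these letters. In all 32851 RefSeq windows, 2.32% hold the X box core, 7.51% the response element core and 16.1% the Y box. An X box core followed on the same strand by a Y box 15 to 40 bases on occurred in 7 windows (0.0213%), of which 4 belong to class II genes: H2-Eb1, H2-Eb2, H2-DMb1 and H2-DMb2. Ctss holds an X box core without a Y box. H2-DMa has 2 windows, of which 1 holds a Y box and the other none of the 3 motifs. These matches describe the letters and say nothing of binding in these cells.

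The values are log2 intensities, so 1 unit is a doubling. The array medians lay between 5.45 and 5.67. A background was taken on each array from 27 control probe sets for bacterial genes, at their 95th percentile, and lay between 3.84 and 4.41. The targeted gene matched the labels: Cebpb read 8.60 and 9.38 in KO CD29hi against 11.95 and 12.25 in WT CD29hi, and 9.23 and 8.89 in KO CD29lo against 11.83 and 12.18 in WT CD29lo (averaged log2 difference -3.03, adjusted p = 0.00277, limma with Benjamini-Hochberg adjustment over the 14599 genes tested, as for every adjusted p below). The 6 basal mammary markers averaged 11.8 to 12.3 in the CD29hi arrays and 6.55 to 7.34 in the CD29lo arrays. On KO CD29lo replicate 1 the background was highest, and 64.7% of probe sets lay above it, against 68.0% to 71.2% on the other arrays.

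Cd74 was the only member above background on all 8 arrays, which held for 77.2% of all genes tested. H2-Ab1 was above it on 7 arrays, as was the probe set of H2-DMb1, H2-Aa and Ciita on 6, Ctss on 4 and H2-Eb1 on 3. H2-DMa was above it on none. The number of members above background on an array was 5 and 7 in KO CD29hi, 3 and 3 in WT CD29hi, 4 and 5 in KO CD29lo, and 7 and 7 in WT CD29lo. Since these are sorted bulk samples, fewer cells of a type and less RNA per cell cannot be told apart.

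**Figure D1:**
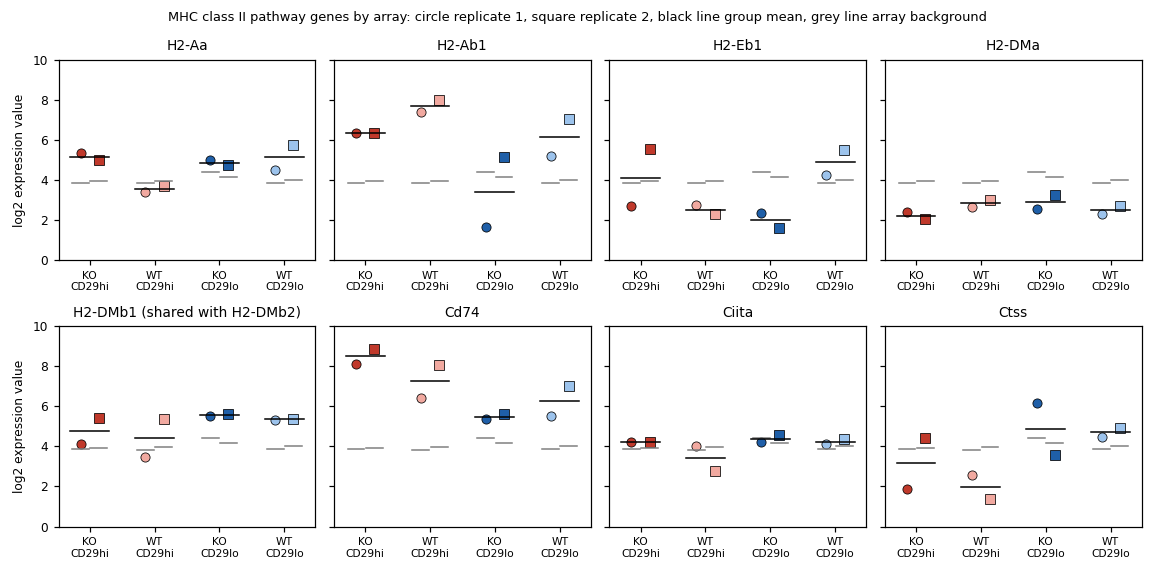
Log2 intensity of the 8 class II pathway genes on each of the 8 arrays, by group, with KO left of WT in each gate. Circles are replicate 1, squares replicate 2, black lines the group mean and grey lines the background of each array (3.84 to 4.41). Cd74 sits above the background on every array, while H2-DMa stays below it on all 8.

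Of the 6 members tested, 0 passed an adjusted p of 0.05 for KO against WT in CD29hi (limma), where 0.0137% of all genes did, and 1 (H2-Aa) had an unadjusted p under 0.05, as 7.84% of all genes had. The same counts held in CD29lo, where 0.0137% of all genes passed and the member with an unadjusted p under 0.05 (6.68% of all genes) was H2-Ab1. With the genotype difference averaged over both gates, 0 members passed (0.0685% of all genes) and H2-Ab1 had an unadjusted p under 0.05 (9.27% of all genes). The genotype difference in CD29hi minus that in CD29lo passed for 0 members and 0% of all genes, with H2-Aa at an unadjusted p under 0.05 (4.95% of all genes). No member was thus called by genotype, but so few of all genes passed that these counts of 0 say little about the pathway. The members' median log2 difference was 1.00 in CD29hi against -0.02 over all genes tested, and -0.07 in CD29lo against -0.06.

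Between the sorted fractions, Cd74 was the one member that passed. It was higher in CD29hi than in CD29lo cells of KO glands, a contrast in which 14.1% of all genes passed, 7.4% higher and 6.66% lower. At an unadjusted p under 0.05 there were 2 members, Cd74 and H2-Ab1, and 29.1% of all genes. No member passed between the WT fractions, where 8.19% of all genes did, 3.96% higher and 4.23% lower (0 members by limma, 2 at an unadjusted p under 0.05, H2-Aa and Ctss, as 22% of all genes). A count of 1 in 6 is close to the share of all genes, so the count alone says little about the pathway. The members' median log2 difference was 0.07 in KO, against 0.03 for all genes, and -0.89 in WT, against 0.

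Cd74, the invariant chain, read 8.08 and 8.87 in KO CD29hi cells, against 5.35 and 5.61 in KO CD29lo cells. The fractions of KO glands did not overlap, as for the 30.4% of all genes that lay higher in CD29hi in this way, and the difference was 3.0 ± 0.66 (SE, 7.97-fold, 95% interval 1.49 to 4.50, adjusted p = 0.0201, n = 2 each). In WT glands it read 6.42 and 8.06 in CD29hi cells and 5.49 and 7.01 in CD29lo cells. These overlap, and the difference of 0.99 ± 0.66 did not pass (adjusted p = 0.437). A difference between the genotypes in the step from CD29lo to CD29hi was not called either (2.01 ± 0.93, adjusted p = 0.961), so Cd74 is not shown to be graded more steeply in KO glands. Without any 1 of the 4 KO arrays the Cd74 call was lost, with adjusted p between 0.0527 and 0.112, while the difference itself stayed between 2.60 and 3.39.

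Read by genotype, Cd74 averaged 8.48 ± 0.56 in KO CD29hi and 7.24 ± 1.16 in WT CD29hi (SD, n = 2 each). Both KO arrays lay above both WT arrays by a narrow margin, as 18.3% of all genes did, and the difference of 1.24 ± 0.66 did not pass (adjusted p = 0.740). In CD29lo the groups overlapped at 5.48 ± 0.18 in KO and 6.25 ± 1.07 in WT (difference -0.77 ± 0.66, adjusted p = 0.864). From highest to lowest the 4 groups ran KO CD29hi, WT CD29hi, WT CD29lo and KO CD29lo. The limma tests run between groups next to each other in this order, KO against WT in each gate and CD29hi against CD29lo in WT, all missed the threshold.

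H2-Ab1 encodes the beta chain of the I-A molecule. It read 6.35 and 6.32 in KO CD29hi, against 7.39 and 7.98 in WT CD29hi, and 1.65 and 5.16 in KO CD29lo, against 5.2 and 7.05 in WT CD29lo. KO lay below WT without overlap in both gates, as 5.56% of all genes did (21.2% in CD29hi alone and 19.6% in CD29lo alone), but in CD29lo the margin was only that between 5.16 and 5.2. The log2 difference was -1.35 ± 1.04 in CD29hi (adjusted p = 0.854) and -2.72 ± 1.04 in CD29lo (95% interval -5.10 to -0.34, adjusted p = 0.684), and averaged over both gates -2.04 ± 0.74 (adjusted p = 0.443). None of these passed after adjustment.

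As the plot of settings shows, the size of the H2-Ab1 difference in CD29lo rests on KO CD29lo replicate 1, where the gene was not above background. Without that array it was -0.97, and without KO CD29lo replicate 2 it was -4.48. Without WT CD29lo replicate 1 it was -3.65 and without WT CD29lo replicate 2 it was -1.80. On the second principal component of all probe sets (14.3% of the variance) KO CD29lo replicate 1 scored 125 and WT CD29lo replicate 2 scored -107, apart from their own replicates (-51.4 in KO and 23.6 in WT). With these 2 arrays left out together, a setting chosen after the data were seen, 1 array a genotype remained and the difference was -0.04. KO CD29lo replicate 1 was also low in some lists of other cell types and not in others. The 6 fibroblast markers averaged 8.07 there and 11.3 in KO CD29lo replicate 2, against 10.2 and 11.8 in WT CD29lo. In the same order, endothelial markers averaged 5.17 and 6.83, against 7.12 and 7.05. Pan-leukocyte markers averaged 5.29 and 5.59, against 6.01 and 6.09, and B cell markers 3.79 and 3.96, against 3.87 and 4.20. Macrophage markers averaged 4.38 and 4.58, against 4.23 and 4.06, and dendritic cell markers 3.84 and 4.19, against 3.51 and 3.32. T cell markers averaged 4.27 and 4.20, against 4.50 and 4.54. The part of these cells in the H2-Ab1 values was not tested.

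H2-Ab1 was also higher in CD29hi than in CD29lo cells in both genotypes, by 2.93 ± 1.04 in KO (adjusted p = 0.101) and by 1.56 ± 1.04 in WT (adjusted p = 0.438), neither past the threshold. The groups do not overlap in either genotype (26% of all genes lay higher in this way in WT), and 16.9% of all genes shared that pattern of CD29hi above CD29lo in both. In KO the difference was 1.18 without KO CD29lo replicate 1, and it was 4.69 and passed (adjusted p = 0.00946) without KO CD29lo replicate 2. The other 2 probe sets of H2-Ab1 read from 1.72 to 4.19, above background on 1 array and on none. In CD29hi 1 of the 2 had the sign of the lead probe set for KO against WT, and in CD29lo both had.

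H2-Aa encodes the alpha chain that pairs with H2-Ab1. It read 5.33 and 4.99 in KO CD29hi, against 3.39 and 3.69 in WT CD29hi, where it was below background on both arrays. KO lay above WT without overlap in this gate, as 18.3% of all genes did, by 1.62 ± 0.51 as measured (95% interval 0.46 to 2.78). The difference did not pass (adjusted p = 0.481). With WT set at the background, KO was 2.41-fold higher. Such folds against the background, here and below, carry no sampling error, and the interval of H2-Aa reaches a smaller fold. In CD29lo it read 4.98 and 4.74 in KO and 4.52 and 5.74 in WT, with the KO arrays inside the WT range (difference -0.27 ± 0.51, adjusted p = 0.940).

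The alpha and beta chain of the same molecule thus did not share a pattern over the groups. In CD29hi H2-Aa was higher in KO and H2-Ab1 was lower, neither called. The other 3 probe sets of H2-Aa had the sign of the lead in CD29hi and 1 of 3 had it in CD29lo. Between the fractions H2-Aa differed by 0.30 ± 0.51 in KO (adjusted p = 0.755). In WT the difference was -1.59 ± 0.51, which did not pass (adjusted p = 0.103). With WT CD29hi set at the background it was 2.36-fold lower than WT CD29lo. Arrays of WT CD29hi lay below those of WT CD29lo without overlap for 26% of all genes. The genotype difference in CD29hi minus that in CD29lo was 1.89 ± 0.72 (adjusted p = 0.961). The lead probe set of H2-Aa has a name ending in _x_at and that of H2-Ab1 one ending in _s_at, which the platform gives to sets that can share probes with other transcripts.

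**Figure D2:**
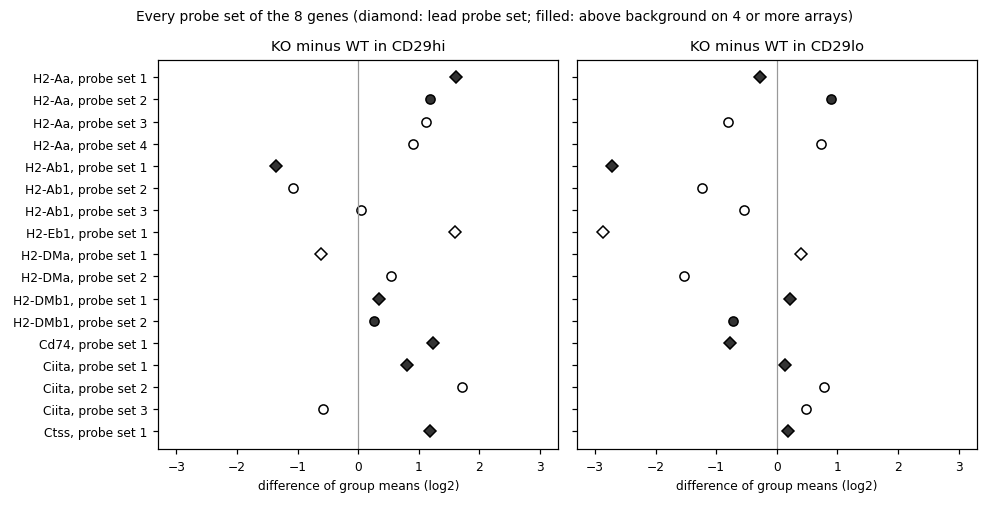
Log2 difference of the group means, KO minus WT, of all 17 probe sets of the 8 genes in CD29hi (left) and CD29lo (right). Diamonds are lead probe sets, circles the others, and filled symbols were above background on 4 or more arrays. All 4 probe sets of H2-Aa lie above 0 in CD29hi, and all 3 of H2-Ab1 below 0 in CD29lo.

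H2-Eb1, the beta chain of the I-E molecule, was seen above background on 3 arrays. It read 2.69 and 5.55 in KO CD29hi, against 2.73 and 2.31 in WT CD29hi, and 2.37 and 1.63 in KO CD29lo, against 4.26 and 5.49 in WT CD29lo. In CD29lo both WT arrays were above background and both KO arrays below, so KO lay lower without overlap, as 19.6% of all genes did. With KO set at the background it was 1.5-fold lower there (measured log2 difference -2.88, no test because the gene lies under the brightness filter). In CD29hi 1 KO array lies within the range of the WT arrays and the other above it. The measured difference there was 1.60, or 1.17-fold with WT set at the background. Between the WT fractions H2-Eb1 was 1.98-fold lower in CD29hi with that group set at the background (measured difference -2.355). In KO the measured difference was 2.12. No rise remained with KO CD29lo set at its backgrounds (4.41 and 4.16), since KO CD29hi averaged 4.12.

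H2-DMa and H2-DMb1 form the exchange factor. H2-DMa read between 2.06 and 3.23 on all 8 arrays, below background on each, and its second probe set was below background on each too. Both probe sets of H2-DMb1 are shared with H2-DMb2, so the values belong to either gene. They read 4.12 and 5.39 in KO CD29hi, against 3.45 and 5.36 in WT CD29hi, and 5.49 and 5.63 in KO CD29lo, against 5.33 and 5.35 in WT CD29lo. The groups overlap in CD29hi (difference 0.35 ± 0.68, adjusted p = 0.960). In CD29lo the KO arrays lie just above the WT arrays (difference 0.22 ± 0.68, adjusted p = 0.964), where 14.7% of all genes lay higher without overlap, and the second probe set goes the other way. Between the fractions the difference was -0.81 ± 0.68 in KO (adjusted p = 0.488) and -0.94 ± 0.68 in WT (adjusted p = 0.478).

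Ciita, the regulator, stayed close to background throughout. It read 4.19 and 4.22 in KO CD29hi, against 4.02 and 2.77 in WT CD29hi, and 4.21 and 4.54 in KO CD29lo, against 4.10 and 4.37 in WT CD29lo. Its difference was 0.81 ± 0.53 in CD29hi (adjusted p = 0.811) and 0.14 ± 0.53 in CD29lo (adjusted p = 0.969). The other 2 probe sets of Ciita were never above background.

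Ctss, the protease that trims the invariant chain, differed widely between the 2 arrays of each KO group. It read 1.89 and 4.42 in KO CD29hi, against 2.59 and 1.36 in WT CD29hi, and 6.17 and 3.58 in KO CD29lo, against 4.47 and 4.91 in WT CD29lo. The KO and WT arrays overlap in both gates (differences 1.18 ± 1.04 and 0.19 ± 1.04, adjusted p = 0.877 and 0.978). Between the fractions of WT glands the Ctss difference was -2.72 ± 1.04, which did not pass (adjusted p = 0.170). With WT CD29hi set at the background it was 1.74-fold lower than WT CD29lo. The difference in KO was -1.72 ± 1.04 (adjusted p = 0.321).

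H2-Aa, H2-Eb1 and Ctss all lay lower in WT CD29hi than in WT CD29lo, the first and last without passing and H2-Eb1 untested. Of the 6 members tested 4 lay below 0 and 2 above, H2-Ab1 (1.56) and Cd74 (0.99), neither passing. Markers of other cell types went both ways in the same contrast. Of 10 macrophage markers tested 7 lay below 0 and 3 above, of which Cd68 passed (1.89, limma adjusted p = 0.0144). The 8 tested pan-leukocyte markers had a median of -1.75, with 5 below and 3 above, and the 5 endothelial markers one of -0.17. Ptprc was 2.65-fold lower in WT CD29hi with that group set at the background. It was under the brightness filter, and with no filter its adjusted p was 0.0298 (limma). Of 6 fibroblast markers 5 passed as lower in WT CD29hi, as 4.23% of all genes did, with a median log2 difference of -5.2, against 0 for all genes. Their mean level was 5.08 and 6.77 in WT CD29hi, against 10.2 and 11.8 in WT CD29lo. In KO 2 of the 6 passed as lower in CD29hi (median -3.32), as 6.66% of all genes did. The part of these cells in the class II values was not tested.

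**Figure D3:**
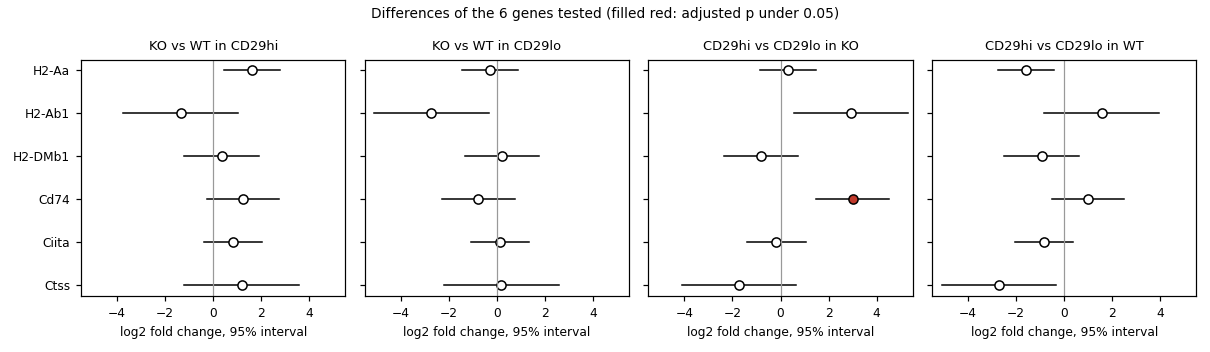
Log2 differences of the 6 members tested, with 95% intervals, for KO against WT in each gate and for CD29hi against CD29lo in each genotype. Red points passed an adjusted p of 0.05. The single red point is Cd74 in CD29hi against CD29lo of KO glands, at 3.0.

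Ptprc, the pan-leukocyte gene that encodes CD45, served as the purity check. It read 1.57 and 4.21 in KO CD29hi, against 0.37 and 1.09 in WT CD29hi, and 2.75 and 4.08 in KO CD29lo, against 6.15 and 4.44 in WT CD29lo. It was above background on 3 of the 8 arrays: KO CD29hi replicate 2 and both WT CD29lo arrays. KO lay above WT in CD29hi and below it in CD29lo without overlap, as for 2.47% of all genes. With KO CD29lo set at the background, KO was 2.01-fold lower than WT in CD29lo. Its second probe set was never above background. The 3 arrays with Ptprc above background are also the 3 on which H2-Eb1 was above background. On KO CD29hi replicate 2 Ctss and Cd74 were also higher than on the other 3 CD29hi arrays, as were H2-DMb1 and Ciita by narrow margins. H2-Ab1 (6.32) and H2-DMa (2.06) were lowest on that array among the CD29hi arrays. H2-Aa (4.99) lay below its value on KO CD29hi replicate 1 (5.33). The part of blood cells in these values was not tested.

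A wider set of 11 pan-leukocyte markers had its highest mean in WT CD29lo, though several of them peaked in other groups. Their mean log2 level was 3.78 and 5.56 in KO CD29hi, against 4.57 and 4.77 in WT CD29hi, and 5.29 and 5.59 in KO CD29lo, against 6.01 and 6.09 in WT CD29lo. Of the 11, between 4 and 9 were above background on the KO CD29hi arrays and 6 on each of the WT CD29hi arrays, and 6 on each of the KO CD29lo arrays and 8 on each of the WT CD29lo arrays. In KO glands 3 of the 8 tested passed the threshold as lower in CD29hi than in CD29lo, as 6.66% of all genes did, and 0 passed as higher. The 3 were the actin bundler Lcp1 (-3.28 ± 0.68, adjusted p = 0.0158), the tetraspanin Cd53 (-1.93 ± 0.46, adjusted p = 0.0282) and the signalling scaffold Cytip (-4.18 ± 0.86, adjusted p = 0.0151). Arhgdib (1.80, adjusted p = 0.0645) and the integrin Itgb2 (1.69, adjusted p = 0.114) lay higher in CD29hi without overlap, as Cd74 did and as 30.4% of all genes did, and missed the threshold. In WT glands 2 of the 8 passed as lower in CD29hi, as 4.23% of all genes did, namely Lcp1 (-3.53 ± 0.68, adjusted p = 0.0165) and Cd53 (-3.06 ± 0.46, adjusted p = 0.00617). Without overlap, 5 of the 8 lay lower in WT CD29hi and 2 higher, where 26% of all genes lay in each direction. The 2 were Rac2 (1.065, adjusted p = 0.419) and Itgb2 (0.71, adjusted p = 0.571). Coro1a, dim and untested, also lay higher there without overlap (1.015).

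Markers of the cells that carry class II constitutively had list means near background, with some members well above it. The 7 B cell markers averaged 3.82 to 3.83 in KO CD29hi, against 3.82 to 4.01 in WT CD29hi, and 3.79 to 3.96 in KO CD29lo, against 3.87 to 4.20 in WT CD29lo. The B cell factor Pax5 and kinase Blk were above background on no array, while the receptor chains Cd79a and Cd79b and the immunoglobulin gene Ighm were above it on all 8. All 4 B cell markers bright enough to be tested, Cd79a, Cd79b, Ighm and the surface antigen Ms4a1, lay higher in KO CD29hi than in WT CD29hi without overlap (0.44 to 0.66, median 0.54), as 18.3% of all genes did. In CD29lo 3 of the 4 did (0.51 to 0.66), as 14.7% of all genes did, and Ighm differed by -0.02. None passed. The mean over all 7 does not show this, since it includes dim untested genes such as Cd22 (-3.40 in CD29hi). Of 14 macrophage markers the complement genes C1qa and C1qc and the integrin Itgam were above background on no array. Above it on all 8 were the lysosomal Cd68 (5.91 to 8.67), the complement gene C1qb (5.25 to 5.78), the adaptors Tyrobp (4.21 to 6.70) and Fcer1g (4.66 to 5.58) and Csf1r, the colony stimulating factor receptor (4.51 to 5.48), and Cd14, the lipopolysaccharide co-receptor, was above it on 7. Their mean was 3.82 to 3.90 in KO CD29hi, against 4.01 to 4.04 in WT CD29hi, and 4.38 to 4.58 in KO CD29lo, against 4.06 to 4.23 in WT CD29lo. Of 7 dendritic cell markers Batf3, Cd209a and Ccr7 were above background on no array and Zbtb46 and Xcr1 on all 8, and the list averaged 3.37 to 3.79 in KO CD29hi, 3.27 to 3.58 in WT CD29hi, 3.84 to 4.19 in KO CD29lo and 3.32 to 3.51 in WT CD29lo.

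None of these lists had a member that passed for KO against WT in either gate (0 by limma). At an unadjusted p under 0.05 there was 1 pan-leukocyte gene of 8 tested in each gate, 1 macrophage gene of 10 in each, and 0 of 4 B cell and 0 of 3 dendritic cell genes. Between the fractions the macrophage genes that passed were Cd14, lower in CD29hi in KO (-3.92 ± 0.60, adjusted p = 0.00459), and Cd68, higher in CD29hi in WT (1.89 ± 0.35, adjusted p = 0.0144). Of all genes 6.66% passed as lower in KO and 3.96% as higher in WT.

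**Figure D4:**
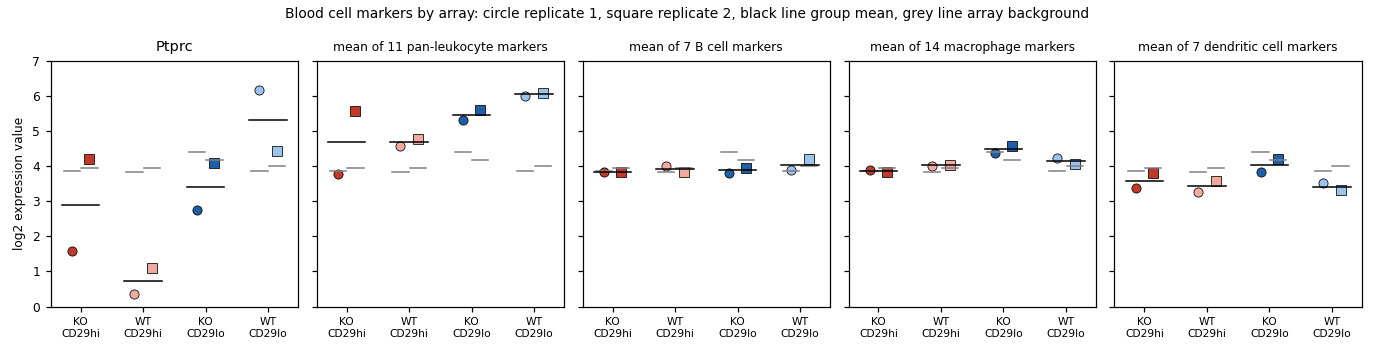
Log2 level of Ptprc and mean log2 level of 4 blood cell marker lists on each array, by group, with circles for replicate 1, squares for replicate 2, black lines for the group mean and grey lines for each array's background. The pan-leukocyte mean runs from 3.78 to 5.56 in KO CD29hi, against 4.57 to 4.77 in WT CD29hi, and from 5.29 to 5.59 in KO CD29lo, against 6.01 to 6.09 in WT CD29lo, and the 3 other lists stay between 3.27 and 4.58.

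Genes upstream of class II were nearly all above background (15 or 16 of 16 on each array), and none passed by genotype. Of 16 tested genes for promoter factors and interferon gamma signalling, 0 passed in any of the 4 genotype contrasts (limma), and at an unadjusted p under 0.05 there were 2 in CD29hi and 2 in the average of the gates, with 0 in CD29lo. The genes of smallest p averaged over both gates were the NF-Y subunits Nfya (0.40 ± 0.16, adjusted p = 0.499) and Nfyb (0.25), the interferon gamma receptor chain Ifngr2 (-0.48 ± 0.20, adjusted p = 0.518) and the factor Irf4 (-0.94). Irf4 was above background on only 3 arrays. It read 5.54 on WT CD29lo replicate 2 and 3.11 to 3.95 on the others.

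Between the fractions, 3 genes of the interferon gamma arm passed as lower in CD29hi in KO, where Cd74 passed as higher. Irf1, which drives Ciita under interferon gamma, was lower in CD29hi than in CD29lo in KO (-2.24 ± 0.28, adjusted p = 0.00188) and in WT (-2.34 ± 0.28, adjusted p = 0.00223). Jak2, the kinase below the receptor, was lower in CD29hi in KO (-1.73 ± 0.22, adjusted p = 0.00209) and in WT (-1.87 ± 0.22, adjusted p = 0.00216). Irf2 was lower in CD29hi in KO (-1.43 ± 0.31, adjusted p = 0.0182). In all, 3 of the 16 passed as lower in KO, where 6.66% of all genes did. In WT 2 passed as lower, where 4.23% of all genes did, and 0 passed as higher in either. The median difference of the 16 was -0.42 in KO, with 5 above 0 and 11 below, and -0.31 in WT, with 4 above and 11 below.

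Of 14 genes for endosomal processing, 0 passed by genotype (limma), with 2 in each gate and 3 averaged over both at an unadjusted p under 0.05. The cathepsins Ctsd, Ctsf and Ctsh passed as lower in CD29hi than in CD29lo in KO, as 6.66% of all genes did (-0.93 ± 0.13, -2.32 ± 0.55 and -2.57 ± 0.56, adjusted p = 0.00345, 0.0267 and 0.0188). In WT Ctsd passed as lower (-0.65 ± 0.13, adjusted p = 0.0212), as 4.23% of all genes did. Ctsc, which activates granule proteases, passed as higher in WT CD29hi (1.44 ± 0.32, adjusted p = 0.0286), as 3.96% of all genes did.

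Class I antigen presentation, the arm that shows peptides from the cytosol, was lower in CD29hi where it passed. Of 10 genes tested, 3 passed as lower in KO, as 6.66% of all genes did. These were the immunoproteasome subunits Psmb8 (-2.89 ± 0.51, adjusted p = 0.00811) and Psmb9 (-3.81 ± 0.70, adjusted p = 0.00969) and the loading factor Tapbp (-1.05 ± 0.15, adjusted p = 0.00347). In WT 2 passed as lower, as 4.23% of all genes did, namely Psmb9 (-2.93 ± 0.70, adjusted p = 0.0389) and Tapbp (-0.93 ± 0.15, adjusted p = 0.00854). By genotype 0 passed (limma), with 1 in each gate at an unadjusted p under 0.05.

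Of the other class II molecules, H2-DMb2 by its own probe set and H2-Eb2 were above background on all 8 arrays and 0 of these 2 passed in any contrast (limma), with 0 at an unadjusted p under 0.05. H2-Ob was above background on no array, the alpha chain H2-Ea on 2 and H2-Oa on 1. Of 7 co-stimulation genes tested 0 passed in any contrast, and 1 had an unadjusted p under 0.05 between the fractions in each genotype and 1 in the gate difference of the genotype contrasts. Cd80 and Cd40 were above background on all 8 arrays and Cd86 on none.

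The measured values of the members did not rise and fall together over the 8 arrays. Of the 28 pairs of members, 16 had a Pearson correlation above 0, with a median of 0.10. The highest was that of H2-Ab1 with Cd74 (0.62), followed by H2-Aa with Ciita (0.62), and the lowest that of H2-Ab1 with Ctss (-0.73). The 8 points share 4 groups and 1 normalization, and H2-DMa, H2-Eb1 and Ctss lay below background on many or all arrays. These correlations are therefore descriptions, and they cannot show whether the dim members vary together. The average of H2-Aa, H2-Ab1, H2-Eb1 and Cd74 was then set against each of 14593 other tested genes. The most similar profiles were those of Cln8 (0.968), Ifnar1 (0.968), Rps6kc1 (0.962), Lmbr1 (0.960), Zfp689 (0.95), Sipa1 (0.947), Golga5 (0.944), Flywch1 (0.942), Adcy4 (0.941) and Prepl (0.938), the highest of a large search over few arrays.

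**Figure D5:**
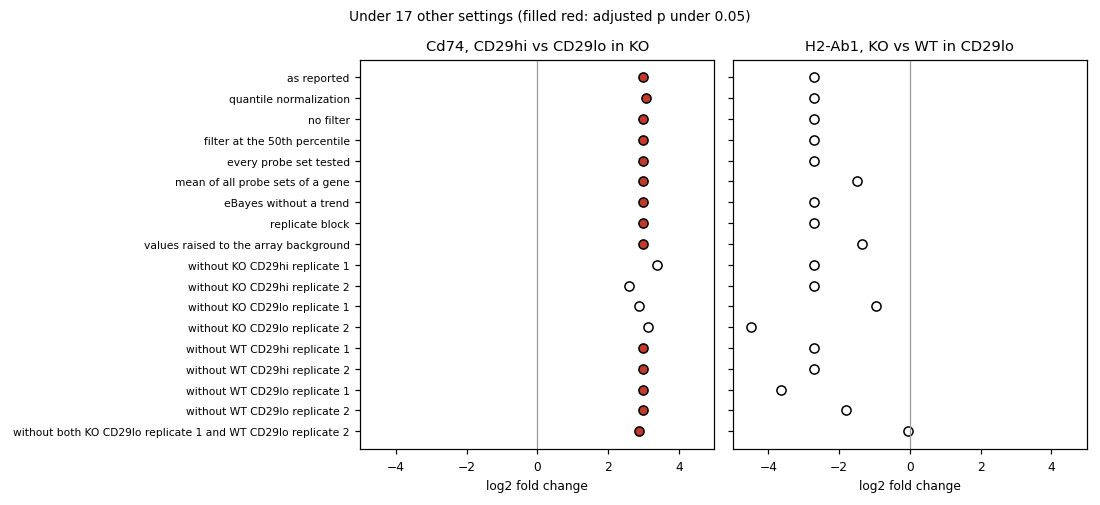
Log2 differences of Cd74 (CD29hi against CD29lo in KO) and H2-Ab1 (KO against WT in CD29lo) as reported and under each of 17 alternatives, with red where the adjusted p was under 0.05. Cd74 between the KO fractions stays between 2.60 and 3.39, while H2-Ab1 for KO against WT in CD29lo runs from -4.48 to -0.04.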

How the data were processed

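The deposited values are 1 log2 intensity per probe set and array, made by the authors by a normalization not given in the sources used here; its scale was read from the values (0 to 14.42). Per the labels' protocols, RNA was isolated with the PicoPure kit, amplified with a NuGEN FFPE kit and labelled with biotin.

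Genes were named from the platform's annotation: 34958 probe sets have 1 gene, 932 several and 9211 none. A gene was tested where the mean of its lead probe set reached the 25th percentile over all probe sets (3.51). Tests used limma 3.58.1 in R 4.3.3, with 4 group means, a trended eBayes step (4 residual and 4.31 prior degrees of freedom), 6 two-sided contrasts and Benjamini-Hochberg adjustment within each. For a group with neither array above background, the fold is against the background and carries no sampling error. The background's percentile was set after the values had been seen, and the number of arrays limits the precision. The fit was tested on simulated data.

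The members and all lists were chosen with earlier results of these data known. Named genes are the members, Ptprc, Cebpb, listed genes past the threshold or otherwise up to 4 per list of smallest p, and the 10 profiles most like the class II mean; the text gives a selection of the lists. Alternatives were quantile normalization, other filters, other uses of probe sets, eBayes without a trend, the replicate number as a block, values raised to background and each array left out. Figures used matplotlib 3.10.9 in Python 3.11.15.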

Additional observations from a re-analysis of the deposited data

Results flagged for a closer look

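Ptprc, the pan-leukocyte gene used as a purity check, was higher in KO in CD29hi (log2 difference 2.16) and lower in KO in CD29lo (-1.88), with no overlap between the arrays of the genotypes in either gate. Of all genes tested, 2.47% had this pattern. The difference between the 2 gates (4.04) was not tested, since Ptprc lies under the brightness filter; with no filter its adjusted p was 0.941 (limma). All 4 CD29hi values but 1, and both KO CD29lo values, were below background. With values raised to the background the difference was 0.14 in CD29hi and -1.01 in CD29lo.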

How the results depend on the processing

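Of 663 recomputed values of 39 gene differences under 17 alternatives, 632 kept their direction and side of the threshold, 23 changed sign, 4 lost a call and 4 gained one. The number of members past the threshold was 0 in all 4 genotype contrasts under every alternative. For CD29hi against CD29lo in KO it was 1, ran from 0 to 1 with an array left out, and was 2 with the replicate number as a block, where H2-Ab1 joined Cd74 (adjusted p = 0.0412, with 0.00946 to 0.399 over the settings). The labels do not say that the number marks the paired sets. Deviations of same-numbered arrays correlated at 0.01 between KO CD29hi and WT CD29hi and at 0.32 between KO CD29lo and WT CD29lo, so the pairing is not established. For CD29hi against CD29lo in WT the count was 1 with both KO CD29lo replicate 1 and WT CD29lo replicate 2 left out (H2-Ab1, adjusted p = 0.0237, with up to 0.868 over the settings), a setting added after the data were seen. A group left with 1 array was assumed to vary like the others. Over all alternatives the adjusted p of Cd74 between the KO fractions ran from 0.00405 to 0.112.

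Most sign changes were of small or dim differences, and the cause was not tested. With those 2 arrays left out, KO against WT in CD29lo was 0.12 for Cd74, -0.89 for Ctss and 0.22 for H2-Aa, and the gate difference of H2-Ab1 was -1.31 (-0.01 with values raised to background). With probe sets averaged, CD29hi against CD29lo was 0.45 in KO and 0.27 in WT for Ciita and -0.18 in KO for H2-Aa, and KO against WT in CD29lo was 0.14 for H2-Aa and -0.26 for H2-DMb1. With 1 array or those 2 left out, the averaged Cd74 difference ran from -0.18 to 0.68, and KO against WT in CD29hi from -0.085 to 2.45 for Ctss and -0.61 to 1.31 for H2-DMb1. In CD29lo it ran from -1.53 to 0.12 for Cd74, -0.025 to 0.44 for Ciita, -1.11 to 1.48 for Ctss and -0.88 to 0.34 for H2-Aa. The gate difference of H2-Ab1 ran from -1.31 to 3.13, CD29hi against CD29lo of H2-DMb1 in WT from -1.89 to 0.02 and of Ptprc in KO from -1.85 to 0.80.

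Counts over all genes moved more: 2053 between the KO fractions (720 to 3782 over the alternatives), 1196 between the WT fractions (506 to 2013), 10 for the averaged genotype contrast (2 to 22), 2 in CD29hi (0 to 6) and 2 in CD29lo (0 to 4). Members near background, H2-DMa, Ciita, H2-Eb1 and Ctss among them, could hide differences that these arrays do not resolve.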

Other observations

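Of the T cell markers, Cd3e and Cd3g of the receptor complex and the co-receptor gene Cd4 were above background on no array. Cd8a and Thy1 were above it on all 8. Cd3d, also of the receptor complex, was above it on 3 arrays, both of KO CD29hi (4.48 and 4.83) among them. It lay higher in KO CD29hi than in WT CD29hi without overlap, as 18.3% of all genes did. That difference of 1.25 did not pass (limma adjusted p = 0.632).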
